A study of Canis lupus familiaris and Eptesicus fuscus and Equus caballus with 6 samples.

Results

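Tc/mariner elements are DNA transposons that move by a cut-and-paste mechanism. An autonomous copy holds a single gene for the transposase, the enzyme that cuts the element out and inserts it at a new TA dinucleotide. Non-autonomous copies keep the inverted repeats at their ends, lack the gene, and are moved by a transposase made elsewhere. Most mammals carry only old, immobile DNA transposons, and vesper bats are known as the exception with recent DNA transposon activity. The big brown bat, Eptesicus fuscus, is a vesper bat.

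The elements described here are the models (consensus sequences of repeat families) that the bat RNA file assigns to the Tc/mariner class, leaving out models whose name begins with Tigger or MER44. These were 46 of the 511 models in the file, and the class held 48 in all. Sequence letters of the models were not used here, so each is described by its name, length and values. The bat RNA came from testes of an adult and is labelled as the mRNA fraction. It is 1 library, and the series holds 6, a small RNA and an mRNA library each from dog, horse and bat. The labels give no treatment or genotype. With 1 library there was no test of any difference, and models are not replicates of each other. The file lists repeat models only, so the tissue label could not be checked against marker genes.

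The values are those that RSEM estimated. An expected count is the number of reads assigned to a model, with a read that matches several models divided between them. TPM divides this count by the length of the model and scales the result to a fixed sum over the file, so that levels of models of different length can be compared. Intervals of shares are exact (Clopper-Pearson) 95% binomial intervals of the rounded counts. They cover counting error only, since PCR reads without molecular identifiers are not independent molecules. Reads of a model pool all of its genomic copies, and copies inside host transcripts count as well as those transcribed by themselves. The file totalled 55904 expected counts.

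The 46 Tc/mariner models took 6018 expected counts, or 10.8% of the element reads (10.5 to 11.0%). As a share of TPM they took 6.48%. Most of these reads lay on 2 models of the Tc2 lineage. MLUC.TC2_122_ORF, a model of 998 nt, had 2375 expected counts. Its name carries ORF, for open reading frame, but whether it holds an intact frame was not checked. MLUC.MYOTIS_TC2, a model of 1728 nt, had 2247. Together they held 76.8% of the Tc/mariner reads and 53.6% of the Tc/mariner TPM. The other 44 models took 1395 expected counts, 2.50% of the element reads.

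**Figure D1:**
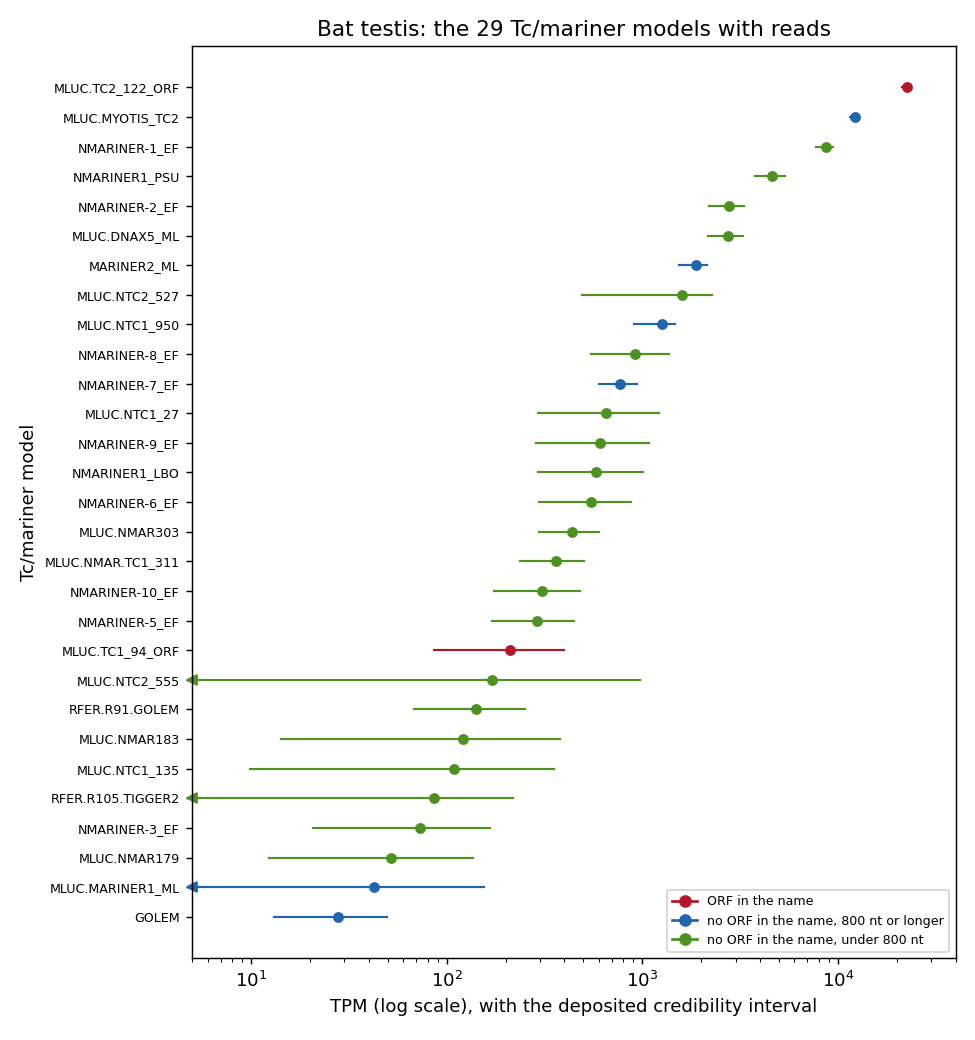
TPM on a log scale of each of the 29 Tc/mariner models with reads in the bat testis library. Points are the deposited values and lines the deposited credibility intervals, with an arrowhead where an interval runs below the axis. The Tc2 models MLUC.TC2_122_ORF (22568) and MLUC.MYOTIS_TC2 (12205) stand at the top, and the only other model with ORF in its name, MLUC.TC1_94_ORF, stands at 210.

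Reads were spread over the other models very unevenly. Of the 46 models, 18 had at least 10 expected counts, a share of 39.1%, where 52.6% of all 511 models in the file did. Outside these elements the share was 54.0% of all models and 60.4% of the other DNA transposon and Helitron models. At least 100 expected counts were listed for 6, against 19.8% of all models. The 40 models below 100 held 9.81% of the Tc/mariner reads. A count of 0 was listed for 17 of the 46, where 25.0% of all models were at 0. With 3 reads as the floor, a 0 allows a TPM of up to 21.6 in the longest of these models, RFER.R6.SMAR1 (1307 nt), and up to 231 in the shortest, RFER.R27.SMAR2 (144 nt). Those short models could be present at levels that were not detectable at this depth. The median TPM of the 46 models was 115, and that of all 511 models was 210.

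Just 2 models carry ORF in their name, and they stood far apart. MLUC.TC2_122_ORF was listed at a TPM of 22568, with a deposited credibility interval of 21359 to 23193. It ranked 2 of all 511 models by expected counts, behind a LINE model, and 9 by TPM. MLUC.TC1_94_ORF, a model of 1208 nt from the Tc1 lineage, had 26.8 expected counts and a TPM of 210 (85.9 to 396). That value is the median of all models in the file. On the TPM scale MLUC.TC2_122_ORF was therefore 108 times MLUC.TC1_94_ORF, with a counting interval of 73.3 to 163, and the deposited intervals did not overlap. Against the highest and lowest ends of the deposited intervals, the ratio ran from 53.9 to 270.

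Models without ORF in the name were split by length at 800 nt. A whole Tc/mariner transposase gene is over 1 kb, so some models above this limit are also too short to hold one. Among these are MARINER2_ML (803 nt), MLUC.NTC1_950 (958 nt) and the ORF-named MLUC.TC2_122_ORF (998 nt). Whether any model over 1 kb holds a whole gene was not checked. Models under 800 nt without ORF in the name, called short here, cannot hold one either, and 34 of the 46 models were of this kind. They took 985 expected counts, 16.4% of the Tc/mariner reads (15.4 to 17.3%), against 39.9% (38.7 to 41.2%) on the ORF-named models and 43.7% (42.5 to 45.0%) on the 10 longer models without ORF in the name. Of the 34, 21 had reads and 12 had at least 10. Their median TPM was 115, with values from 52.1 to 8710 among those above 0. The ORF-named models had a median TPM of 11389, which was 98.8 times that of the short models. This ratio rests on MLUC.TC2_122_ORF alone, since MLUC.TC1_94_ORF lay within the range of the short models. By TPM, which weighs short models more, the short models took 39.9%, more than the 35.1% of the ORF-named models, so the order of these groups turns with the unit. The models nearest to the length limit were MARINER2_ML at 803 nt, with a TPM of 1883, and MLUC.NMAR.TC1_311 at 739 nt, with 362.

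**Figure D2:**
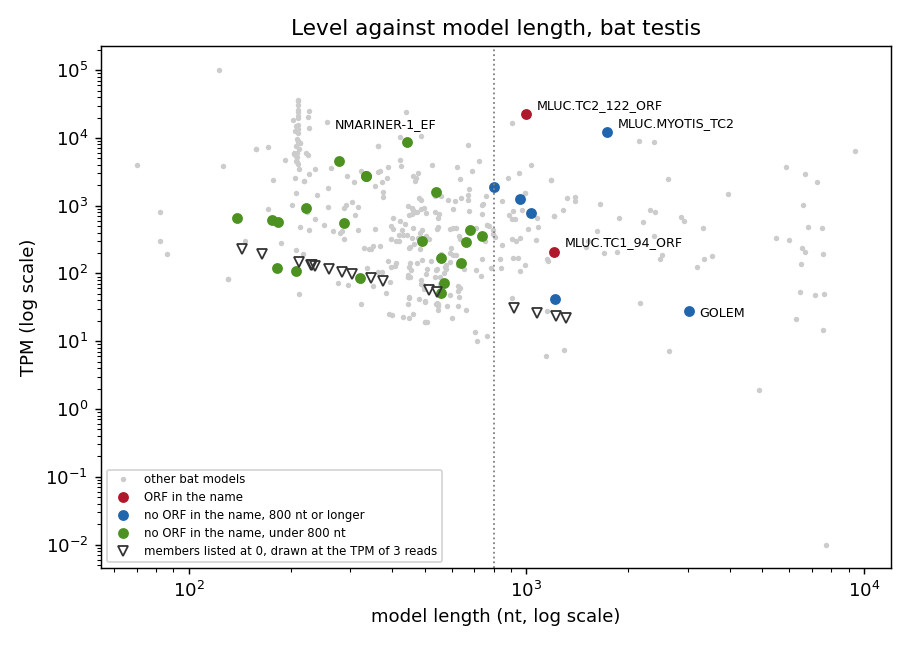
TPM against model length in the bat testis library, both on log scales. Coloured points are Tc/mariner models with reads, open triangles are those listed at 0, drawn at the TPM that 3 reads would give, grey points are the other bat models with reads, and the dotted line marks 800 nt. Short Tc/mariner models with reads ran from 52.1 to 8710 TPM, and those of 800 nt or longer from 27.8 to 22568.

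Long models were found at both ends of the range among models with reads, with MLUC.MYOTIS_TC2 at 12205 and GOLEM, the longest at 3029 nt, at 27.8. The low end depends on length, since the same count gives a higher TPM on a shorter model. GOLEM had 9.04 expected counts, while the lowest short model with reads, MLUC.NMAR179, had a TPM of 52.1 from 3.

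By the names of the models, the Tc2 lineage had 4 models and 4721 expected counts, 78.5% of the Tc/mariner reads (77.4 to 79.5%). The mariner-named models were 29 and took 991 expected counts (16.5%), and the 7 Tc1 models took 192 (3.19%). Tc1 was first described in Caenorhabditis elegans and mariner in Drosophila mauritiana. The 5 models with Tigger or Golem inside their name took 21.2 expected counts (0.352%). MLUC.DNAX5_ML, whose name gives no lineage, took 91.9.

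**Figure D3:**
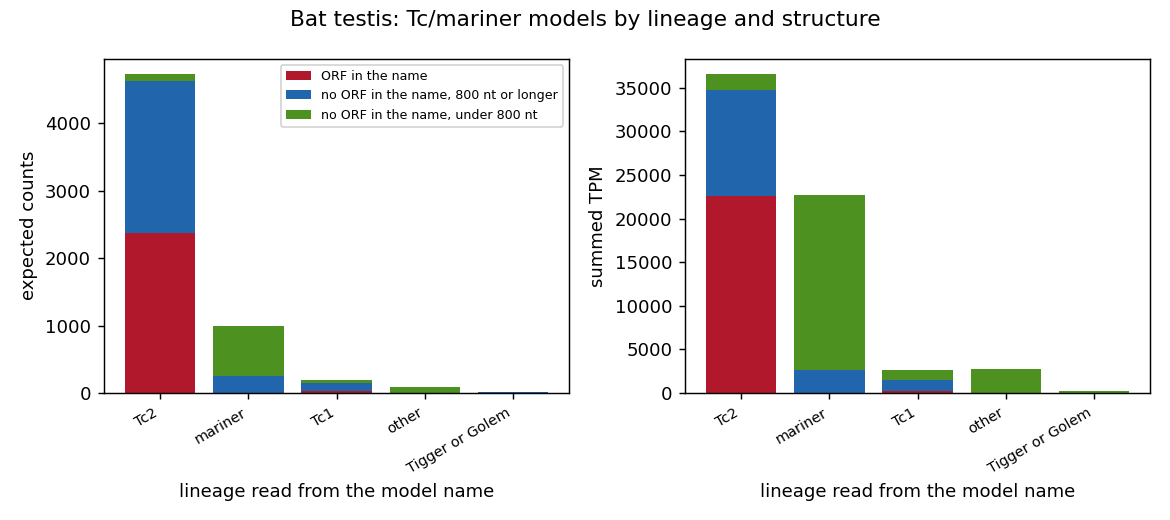
Expected counts (left) and summed TPM (right) of the Tc/mariner models in the bat testis library, grouped by the lineage in the model name and coloured by structure. Tc2 reads lay on the ORF-named and the long model, while most mariner reads lay on models under 800 nt, which summed to 19995 of 22687 TPM.

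In the Tc2 lineage most reads lay on the ORF-named model and on the long model. The TPM of MLUC.TC2_122_ORF was 1.85 times that of MLUC.MYOTIS_TC2 (counting interval 1.74 to 1.96). The deposited intervals, 21359 to 23193 and 11492 to 12611, did not overlap. In expected counts per kb of model length less 24 nt they had 2438 and 1319. The Tc2 models named as non-autonomous were far lower. MLUC.NTC2_527 (540 nt) had 89.2 expected counts and a TPM of 1600 (491 to 2284), and MLUC.NTC2_555 (559 nt) had 9.82 expected counts and 170 (0.000767 to 978). MLUC.TC2_122_ORF was 14.1 times MLUC.NTC2_527 by TPM (11.4 to 17.7 by counting), and 9.35 to 47.2 times over the ends of the deposited intervals. The names with NTC2 held 2.10% of the Tc2 reads.

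In the mariner-named group the reads lay mostly on models marked as non-autonomous. Names with NMAR at the start or right after MLUC, a usual mark of such elements, covered 18 of the 29 models and took 827 of the 991 expected counts. The leading one was NMARINER-1_EF, 442 nt long, with 393 expected counts and a TPM of 8710 (7783 to 9477). NMARINER1_PSU (279 nt) followed with 126 and a TPM of 4587 (3779 to 5376), and the intervals of these 2 models did not overlap. NMARINER-2_EF (334 nt) had 92.9 expected counts and a TPM of 2773 (2200 to 3333).

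The 6 mariner models of 800 nt or longer took 248 of the 991 expected counts, most of them on MARINER2_ML and NMARINER-7_EF. MARINER2_ML, at 803 nt, had 158 expected counts and a TPM of 1883 (1535 to 2155). NMARINER-7_EF (1035 nt), long in spite of the mark in its name, had 83.8 and a TPM of 767 (604 to 939). MLUC.MARINER1_ML, at 1211 nt and with no mark of a non-autonomous element, had 5.42 expected counts and a TPM of 42.3 (0.134 to 155). The remaining long mariner models, NMARINER-4_EF (1075 nt), RFER.R12.SMAR4 (919 nt) and RFER.R6.SMAR1 (1307 nt), were at 0. NMARINER-1_EF was 206 times MLUC.MARINER1_ML by TPM, with a wide counting interval of 94.8 to 691 and a range of 50.3 to 70896 over the ends of the deposited intervals.

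The remaining NMARINER models above 0 with EF in the name ranged from 4.31 expected counts for NMARINER-3_EF to 19.96 for NMARINER-5_EF. By TPM, NMARINER-8_EF (222 nt) was the highest of these at 916 (546 to 1372). Its interval overlapped with those of NMARINER-9_EF at 606 and NMARINER-6_EF at 547, so that their order was not resolved. Among the mariner-named models marked MLUC, MLUC.NMAR303 had 30.9 expected counts, MLUC.NMAR179 had 3 and MLUC.NMAR183 had 2.07, while MLUC.NMAR382, MLUC.NMAR91 and MLUC.MARIN_ML were at 0.

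Tc1 models held few reads, and a model marked as non-autonomous led them. MLUC.NTC1_950, which is 958 nt long, had 127 expected counts and a TPM of 1260 (908 to 1469). This was 6.01 times the ORF-named Tc1 model MLUC.TC1_94_ORF (3.91 to 9.40 by counting, and 2.29 to 17.1 over the ends of the deposited intervals, which did not overlap). MLUC.NMAR.TC1_311, which carries both lineage names and was counted as Tc1, had 28.0 expected counts. MLUC.NTC1_27, the shortest of the 46 models at 139 nt, had 8.08 expected counts but a TPM of 650 (295 to 1212). MLUC.NTC1_135 had 2.16, and MLUC.NTC1_452 and the long model MLUC.MYOTIS_TC1 (1222 nt) were at 0.

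The names also carry a mark of their source, for which the files give no key, and the share of models with reads differed by this mark. The letters EF, the initials of Eptesicus fuscus, mark 10 of the models, of which 7 had at least 10 expected counts and 1, NMARINER-4_EF, was at 0. MLUC or ML marks 20, of which 9 had at least 10 and 5 were at 0. With this mark, 2 models also carry Myotis, another genus of vesper bats, in their name. RFER marks 11, of which none had 10 and 9 were at 0. RFER.R91.GOLEM, with 9.40 expected counts, and RFER.R105.TIGGER2, with 2.75, were the RFER models above 0. Of the models with other marks, NMARINER1_LBO had 10.01 expected counts, and NMARINER2_LBO and PVAM.TIGGER5A_R93 were at 0. GOLEM, whose name carries no such mark, had 9.04.

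The same order by source was seen over the rest of the file. Among models outside the Tc/mariner elements, at least 10 expected counts were listed for 72 of 95 with the EF mark (75.8%), 45.3% of 223 with MLUC or ML and 7 of 31 with RFER (22.6%). The EF and MLUC shares of the Tc/mariner models, 70.0% and 45.0%, stand beside these, and beside 84.1% and 48.6% among the other DNA transposon and Helitron models alone. The difference from either was not tested. By reads, however, the MLUC-marked models held 86.5% of the Tc/mariner counts, because both leading Tc2 models carry that mark, and the EF-marked ones 10.9%. The largest value without either mark was that of NMARINER1_PSU.

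Some of the Tc/mariner values are less certain than their counts alone would make them. RSEM's credibility interval widens where reads match several models, and its width was compared with that of the shortest 95% interval for the same count. For models at 0 the median upper bound was 2.96 reads, close to the 2.996 that counting alone gives. Over the whole file, 19 of 511 models (3.72%) had an interval at least 2 times as wide as counting gives. Among the Tc/mariner models these were 4 of 46 (8.70%), namely MLUC.MYOTIS_TC1 at 4.92 times, MLUC.NTC2_555 at 4.52, MLUC.NTC2_527 at 2.69 and MLUC.MARINER1_ML at 2.10.

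The ORF-named Tc1 model was next, with MLUC.TC1_94_ORF at 1.94 times. Its deposited bounds correspond to 11.0 and 50.7 reads around an estimate of 26.8. MLUC.MYOTIS_TC1, although listed at 0, had an upper bound of 14.7 reads, and MLUC.MARINER1_ML had bounds of 0.0171 and 19.8 around 5.42. For MLUC.NTC2_527 the bounds were 27.4 and 127 reads around 89.2, and for MLUC.NTC2_555 they were near 0 and 56.6 around 9.82. Which models shared these reads was not examined, and the counts of the NTC2 models were poorly resolved. The leading Tc2 models were not of this kind, with MLUC.TC2_122_ORF at 1.01 times and MLUC.MYOTIS_TC2 at 1.11 times. The bounds of MLUC.MYOTIS_TC2 were 2116 and 2322 reads around 2247. As the width is taken relative to counting error, a ratio near 1 at such counts does not show that no reads were shared with other models.

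**Figure D4:**
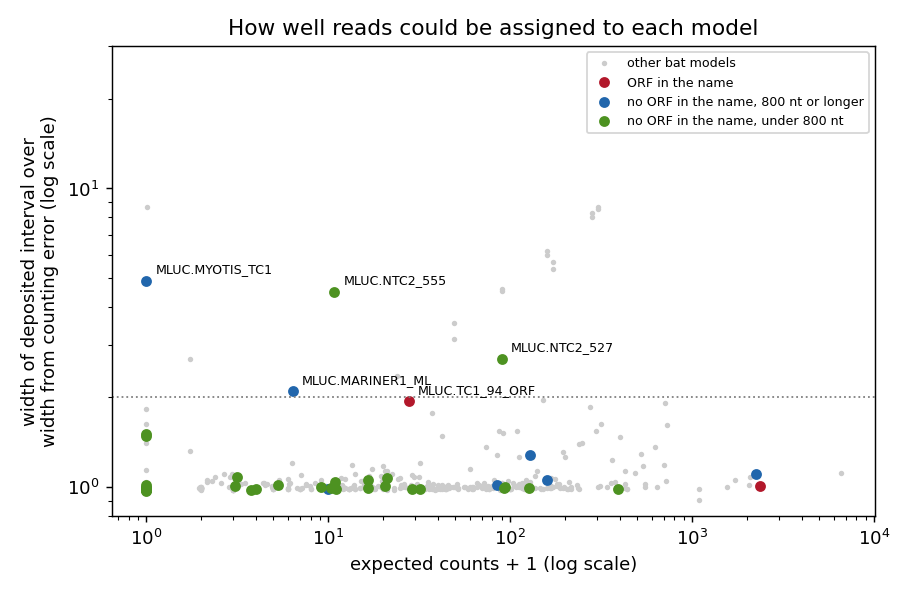
Width of the deposited credibility interval over the width that counting error alone gives, against expected counts plus 1, both on log scales, for the 46 Tc/mariner models (coloured) and the other bat models (grey). Values near 1 are models whose reads were assigned with little added uncertainty relative to counting error, and the dotted line marks 2. MLUC.MYOTIS_TC1 stands highest among the Tc/mariner models at 4.92, followed by MLUC.NTC2_555 at 4.52.

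NMARINER-2_EF and MLUC.DNAX5_ML looked like copies of the same model and were not by this measure. Both were 334 nt long, with 92.9 and 91.9 expected counts and TPM of 2773 and 2743. Their intervals were 1.003 and 0.992 times the counting width. In contrast, 12 other models of the file formed 6 pairs with the same length and the same count (at least 10), and their intervals were 3.14 to 8.65 times the counting width. None of these was a Tc/mariner model.

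Set beside the hAT, Helitron, PiggyBac and unassigned DNA transposons of the bat, the Tc/mariner reads lay more on long models. They also lay more on few models than those of hAT and Helitrons. Models of 800 nt or longer took 83.6% of the Tc/mariner reads (82.7 to 84.6%), and 12 of the 46 models had that length. The file lists most models named HAL1 under hAT, although HAL1 is known as a LINE. In hAT without these, 7 of 45 models were as long and took 11.9% of the reads (10.8 to 12.9%). Helitrons, the rolling-circle transposons, had 33 of 85 models of that length, with 58.6% of the reads (57.7 to 59.6%). PiggyBac had 4 of 16, with 0.925% (0.109 to 3.20%) of only 223 expected counts. The unassigned DNA transposons had 2 of 28, with 25.2% of the reads (22.6 to 28.1%).

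**Figure D5:**
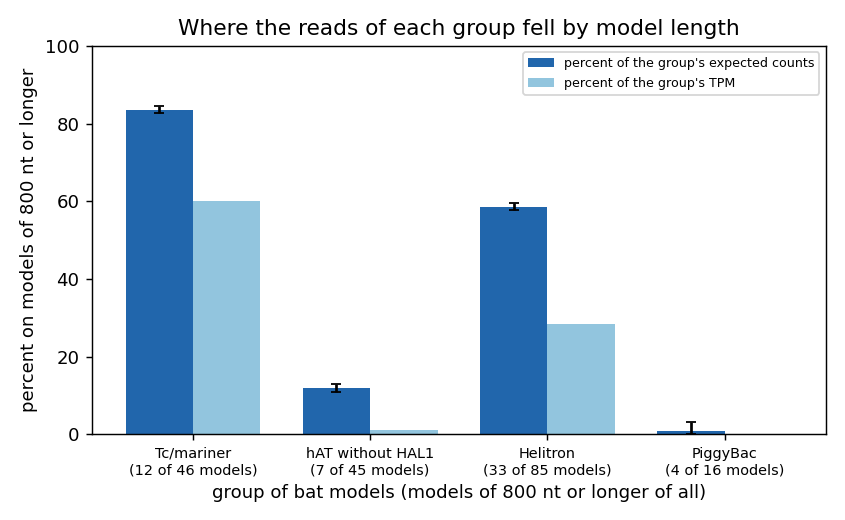
Percent of each group's expected counts (dark) and TPM (light) that lay on models of 800 nt or longer in the bat testis library. Error bars are exact 95% binomial intervals of the counts, and the labels give the number of such models. The Tc/mariner bars stand at 83.6% and 60.1%, above those of hAT (11.9% and 1.15%), Helitrons (58.6% and 28.5%) and PiggyBac (0.925% and 0.0631%).

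Most of the Tc/mariner reads on long models lay on the 2 leading Tc2 models. Of the remaining 1395 expected counts, the long models MARINER2_ML, MLUC.NTC1_950 and NMARINER-7_EF had 158, 127 and 83.8. The other long models with reads, MLUC.TC1_94_ORF, GOLEM and MLUC.MARINER1_ML, had 26.8, 9.04 and 5.42. Without the 2 leading models, the share on long models thus stayed above those of hAT and PiggyBac and, by less, that of the unassigned DNA transposons. It fell below that of Helitrons. The other groups kept their leading models in these shares. The first 2 models held 76.8% of the Tc/mariner reads, 28.9% of the hAT reads and 26.4% of the Helitron reads. In PiggyBac they held 74.3%, and in the unassigned DNA transposons 68.3%. The leading hAT, Helitron and PiggyBac models were NHAT-3_EF with 550 expected counts, HELITRON-10_EF with 2051 and NPIGGYBAC-2_EF with 118. The median TPM of the long Tc/mariner models, 126, was close to that of the short ones, 115. At least 10 expected counts were listed for 48.9% of the hAT models, 82.4% of the Helitron models and 25.0% of the PiggyBac models, against 39.1% here.

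The dog and horse files list 14 Tc/mariner models outside Tigger, among them Kanga1, which is filed under Tc2. In dog, 12 of the 14 were at 0. Kanga1 had a TPM of 4.05 (0.951 to 10.6) and MER121 one of 6.16 (0.253 to 29.1). In horse 8 were at 0, and Kanga1 led with 95.5 (71.9 to 119). How many of all dog or horse models were at 0 was not examined, so these counts at 0 have no background beside them. These models took 0.373% of the TPM of DNA transposons and Helitrons in dog and 1.02% in horse, where the 46 bat models took 17.0%. They were 14 of 209 such models in dog and 14 of 206 in horse, against 46 of 228 in bat. The definitions differ, since the 46 keep the 5 bat models with Tigger or Golem inside their name. The bat total also includes the HAL1 models that are filed under hAT. The class of 2 of the 14, MER121 among them, carries a question mark in the files, and without them the shares were 0.148% in dog and 0.914% in horse, an alternative chosen after seeing the data. The files hold different models, and TPM is scaled within each file, so these shares stand side by side without a comparison of levels. In bulk tissue, fewer cells of a type and less RNA per cell cannot be told apart.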

How the data were processed

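Testis RNA of the bat was used from 1 mRNA library, with dog and horse mRNA files for the side-by-side values. Per the submitters' processing notes, Bowtie and RSEM were used, and CanFam3.1 is the build named for every sample. For the mRNA libraries, the sources used here give no element library, filter, read length or strand. Per the file headers, the authors deposited RSEM's expected counts, TPM and model lengths. They also deposited the bounds of a credibility interval, a score on the TPM scale whose level is not stated. TPM followed the count over the length less 24 nt, deviating by at most 0.0216% in the 217 models with at least 20 expected counts.

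Shares, ratios and intervals were computed in Python 3.11.15 with SciPy 1.17.1, from expected counts rounded to whole numbers for the intervals. Ratios of models carry exact conditional binomial intervals. The interval calculations were run on simulated independent counts. This checks the code for counting error only, as it leaves out the division of reads between models. Named were all models with ORF in the name, those with at least 100 expected counts, the 5 with the highest TPM, and, outside this rule and chosen after their values were seen, other models of each lineage. Members and groupings were chosen with earlier results of these data known. No test was made, since each group held 1 library. The small RNA files were not used here, as reads could not be placed on models without their sequences.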

Additional observations from a re-analysis of the deposited data

How the results depend on the processing

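The Tc/mariner share of element reads, 10.8% as reported, was 6.48% as a share of TPM and 11.1% with the 2 Tigger models of the class kept in (it holds no MER44 model). It was 6.80% without MLUC.TC2_122_ORF and 11.5% with the HAL1 models filed under hAT out of the total. With a minimum of 1 expected count, 29 models had reads in place of 18, and with 100 there were 6. The ORF-named share, 39.9%, was 35.1% by TPM, 38.6% with Tigger kept in, 0.737% without MLUC.TC2_122_ORF, and 77.3% with MLUC.MYOTIS_TC2 counted in, an alternative chosen after seeing the data. The share on short models, 16.4%, was 13.1% with a limit of 500 nt, 22.5% with 1200 nt, 39.9% by TPM, and 18.1% where names marked N replaced the length, also chosen after seeing the data. The ratio of median TPM, 98.8, was 117 with 500 nt, 93.8 with 1200 nt, 15.2 over models with at least 10 expected counts, 110 with counts per model length, and 117 without models with wide intervals, again chosen after seeing the data. The low value over models with at least 10 follows from dropping the short models at or near 0. Leaving out the members with Tigger or Golem inside the name gave 10.7%. No paired analysis was possible because each group holds 1 library, and no library could be left out.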

Other observations

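Models near to these elements by name gave further values. TIGGER1 (2400 nt), from the pogo-related branch of the class, had 204 expected counts and a TPM of 794 (681 to 896), more reads than all Tc/mariner models but MLUC.TC2_122_ORF, MLUC.MYOTIS_TC2 and NMARINER-1_EF. TIGGER2A_CAR had 7.89 expected counts. MER44B, filed among unassigned DNA transposons, had 43.3 and a TPM of 762 (551 to 1002). MARINER1_LB (2294 nt), the only model under a separate mariner class, was at 0, where 3 reads would be a TPM of 12.2.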
